A study of Zea mays with 24 samples.

Results

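Glutathione S-transferases (GSTs) were followed in shoots and roots of maize seedlings under Fe and Zn deficiency. The members are the probe sets whose gene carries the name gst and a number, as a symbol or a synonym, and 35 of the 17734 probe sets on the array, for 31 genes, met this condition. Of the 32 GST genes that carry such a name in the RefSeq gene table, gst20 had no annotated probe set. Only 1453 probe sets, for 1109 genes, carry a gene in the array annotation, so GSTs without such a name or among the unannotated probe sets are not described. Gene descriptions were not given in the tables used, and the members rest on names alone. gst31 is measured by 4 probe sets, gst13 by 2, and every other member gene by 1.

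The study grew the inbred line SKV-616 in nutrient solution without Zn (–Zn), without Fe (–Fe), without both (–Fe–Zn) or with both (+Fe+Zn, the control). Shoots and roots were sampled 12 days after transplanting, with 3 replicates for each of the 8 groups, and each of the 24 RNA samples was hybridised to 1 Affymetrix GeneChip Maize Genome Array. No mutant or transgene is involved, and all plants are of 1 genotype. Groups follow the sample labels. Fold changes printed by the study for ys1 and nas1 fit another assignment. There the labelled root –Fe–Zn would be root –Fe, and shoot +Fe+Zn would be root –Fe–Zn. Shoot –Fe–Zn, where gst42 was highest, would be the shoot control, and root –Fe would be shoot –Fe–Zn. Only the root –Zn comparison with +Fe+Zn would then stay as given. Leaf marker means followed the labelled tissue where it would change (9.35 to 9.42 in shoot +Fe+Zn, 4.14 to 4.34 in root –Fe). Which assignment holds was not settled. Whole shoots and roots mix many cell types, so fewer cells of a type and less RNA per cell cannot be told apart.

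GSTs join the tripeptide glutathione to reactive, electrophilic compounds, and many also reduce organic peroxides with it. The conjugates are moved into the vacuole by ABC transporters. In maize the family is best known for detoxifying herbicides and for its induction by herbicide safeners, and the phi and tau classes hold most plant members. The phi-class enzymes encoded by gst1, gst2 and GST3 are known for conjugating chloroacetanilide herbicides.

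Signals are log2 values, so a difference of 1 is a 2-fold change. The deposited values end at 2.24, a lowest value common to all arrays, and changes against it are understated. gst8, gst32, gst35 and the gst13 probe set ending S1_x_at were at 2.24 on 19 to 22 of the 24 arrays, and 6 of the 35 probe sets never reached a group mean of 3. The summarised values also repeat. Apart from those at 2.24, 21 of the 35 members had 1 value, equal to 3 decimals, on 3 or more arrays (for example 3.98 on 7 arrays for gst7), against 26.7% of all probe sets. Identical replicates are therefore no sign of a spread of 0.

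Replicates correlated at 0.989 or more in 6 of the 8 groups, at 0.974 to 0.988 in –Fe–Zn shoots and at 0.952 to 0.987 in –Fe–Zn roots, where replicate 1 stood apart (0.952 and 0.955 with the other arrays). In root –Fe–Zn the bacterial control BioB averaged 12.86 ± 2.21 and 18S rRNA 8.95 ± 1.15, against 6.09 ± 0.88 and 5.18 ± 0.73 in +Fe+Zn roots (SD, n = 3). The middle probe set of cyclophilin averaged 2.76 ± 0.24 in –Zn shoots, 9.18 ± 0.34 in –Fe shoots and 2.77 ± 0.34 in –Fe–Zn shoots, against 4.84 ± 0.36 in +Fe+Zn shoots. The 3′ signal of 3 control transcripts minus their middle signal averaged 6.27 in –Fe shoots, against 9.26 in +Fe+Zn shoots. Most markers followed the tissue labels, with 14 of 17 leaf marker probe sets higher and 6 of 10 root marker probe sets lower in +Fe+Zn shoots than in +Fe+Zn roots, while 1 leaf marker was lower and 1 root marker, ys1, higher (8.76 in shoots and 3.61 in roots). The array mean of the leaf markers was 7.99 to 8.26 in –Zn shoots, 9.57 to 9.78 in –Fe shoots and 6.99 to 7.68 in –Fe–Zn shoots, against 9.35 to 9.42 in +Fe+Zn shoots, and 11, 2 and 13 of the 17 were called lower and 1, 4 and 0 higher. The array mean of the root markers was 3.76 to 3.81 in –Zn roots, 4.31 to 4.38 in –Fe roots and 4.14 to 4.90 in –Fe–Zn roots, against 4.63 to 4.87 in +Fe+Zn roots. Apart from the 3′-minus-middle signal, which was tried as a covariate, the part of these differences in the GST results was not tested.

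GST transcripts changed in both directions under every deficiency, with gst42, gst2 and gst19 higher in all 6 comparisons with +Fe+Zn. A probe set was called when its Benjamini-Hochberg adjusted p over all probe sets was under 0.05 in limma. Of the 35 GST probe sets 30, for 27 genes, were called in at least 1 of the 6 comparisons, or 85.7% against 72% of all probe sets. The members gst8, gst14, GST26, gst35 and the gst13 probe set at the lowest value were called in none. The 3 deficiencies of a tissue share its control arrays, so their counts are not independent.

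In shoot –Zn 7 GST probe sets were higher and 8 lower, or 20% and 22.9% of the 35, against 20.3% higher and 19% lower of all probe sets. Shoot –Fe had 8 higher (22.9%) and 7 lower (20%), against 17% and 16.4% of all probe sets. In shoot –Fe–Zn 11 were higher (31.4%) and 4 lower (11.4%), against 22.4% and 22.2% of all probe sets. The median GST change was 0.09, 0.00 and 0.18 in the 3 shoot comparisons, where that of all probe sets was 0.00. The shares in –Zn and –Fe shoots were thus near those of all probe sets. After quantile normalization the split was 10 higher and 5 lower for –Fe and 10 and 6 for –Fe–Zn, and after median centring 7 and 11 for –Zn and 9 and 7 for –Fe–Zn. With the 3′-minus-middle signal of each array as a covariate, –Fe shoots had 7 higher and 10 lower. Within groups this signal varied mainly in –Fe–Zn roots (SD 2.01, against 0.08 to 0.47 in the other groups). The adjustment therefore rests mainly on those arrays and is carried over to the gap between –Fe and +Fe+Zn shoots (6.27 and 9.26). This limits every value given with the covariate. gst31 is counted with its 4 probe sets here. With the brightest probe set of each of the 31 genes the counts were 7 and 5 without Zn, 8 and 4 without Fe and 11 and 2 without both.

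Root –Zn had 10 GST probe sets higher (28.6%) and 8 lower (22.9%), against 13.4% and 8.46% of all probe sets. In root –Fe 7 were higher (20%) and 10 lower (28.6%), against 14.7% and 10.9% of all probe sets. Root –Fe–Zn had 15 higher (42.9%) and 7 lower (20%), against 8.09% and 20% of all probe sets, and 10.5% and 22.6% of the annotated ones. The median GST change was 0.00, -0.13 and 0.41, where that of all probe sets was 0.00. After median centring, which moved the median of all probe sets in –Fe–Zn roots to 0.25, the GSTs split into 21 higher and 4 lower there, and after quantile normalization into 16 and 6. With the covariate –Fe roots had 7 higher and 14 lower and –Fe–Zn roots 12 and 7. Of the 22 calls in –Fe–Zn roots, 15 held whichever array was left out.

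**Figure D1:**
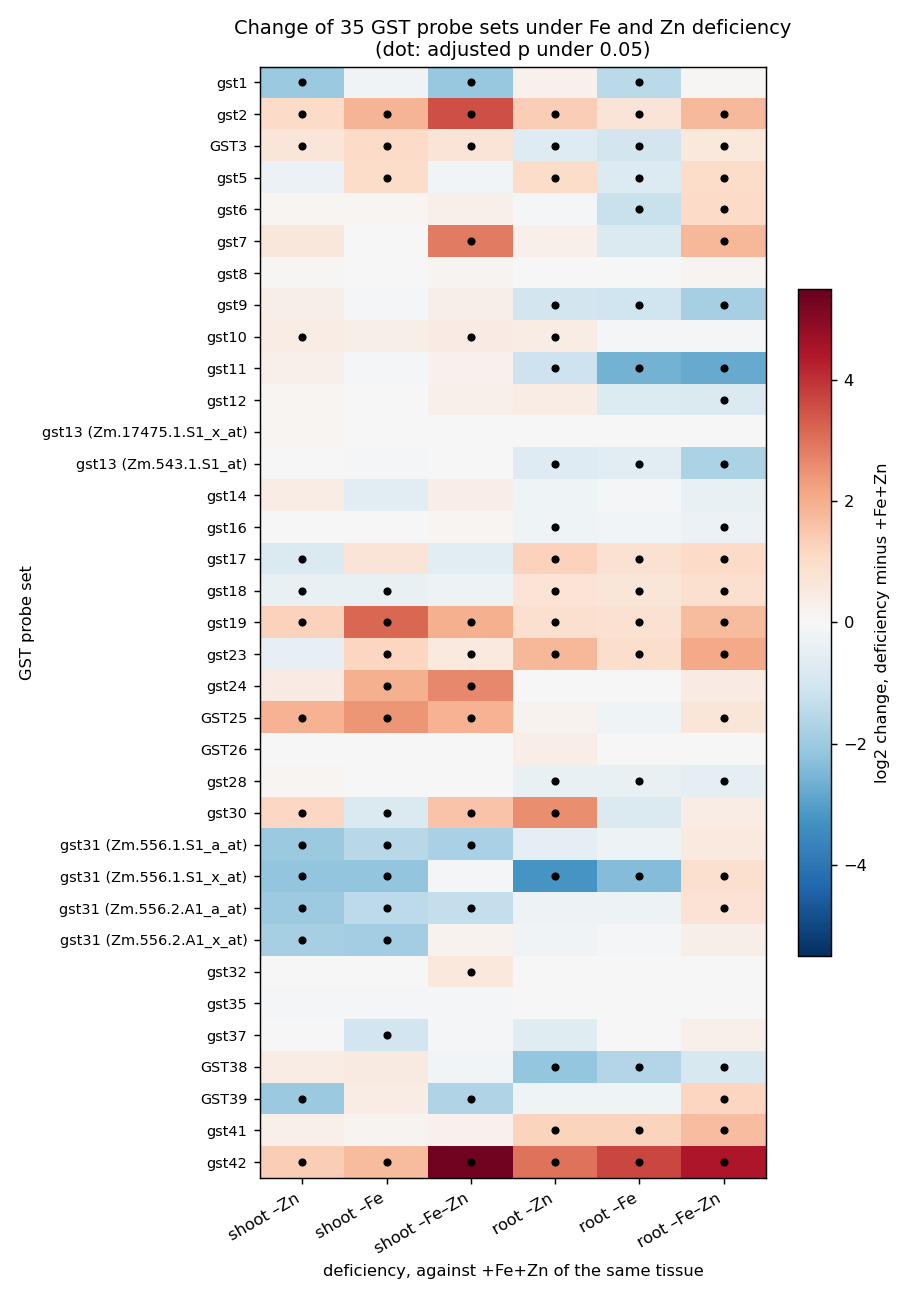
Log2 change of the 35 GST probe sets (rows) in the 6 comparisons with +Fe+Zn of the same tissue (columns), red for higher and blue for lower, with a dot where the adjusted p was under 0.05. The rows of gst42, gst2 and gst19 are red with a dot throughout. The values reach 5.29 for gst42 in shoot –Fe–Zn and -3.25 for gst31 in root –Zn.

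gst42 had the largest change of all members in –Fe–Zn shoots, –Fe roots and –Fe–Zn roots. Its log2 signal was 7.21, 7.43 and 7.0 in –Zn shoots, 7.63, 7.58 and 7.70 in –Fe shoots and 11.02, 11.28 and 11.17 in –Fe–Zn shoots, against 5.83, 5.87 and 5.91 in +Fe+Zn shoots. The 9 deficient shoots were all above the 3 control shoots, and those without both elements formed a separate, higher set. The changes were 1.34 (SE 0.24, adjusted p = 0.00023) without Zn, 1.76 (SE 0.24, adjusted p = 1.4e-05) without Fe and 5.29 (SE 0.24, adjusted p = 1.4e-11, 39-fold) without both. With the covariate, the –Fe change was 0.82 (adjusted p = 0.016).

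In roots gst42 read 9.06, 8.97 and 8.72 without Zn, 9.60, 9.65 and 9.62 without Fe and 9.60, 10.83 and 10.66 without both, against 5.44, 6.32 and 6.05 in +Fe+Zn. No deficient root overlapped the controls, and replicate 1 of –Fe–Zn lay with the –Fe roots. It rose by 2.98 (SE 0.24, adjusted p = 8e-08) under –Zn, by 3.69 (SE 0.24, adjusted p = 3.5e-09) under –Fe and by 4.43 (SE 0.24, adjusted p = 3e-10) under –Fe–Zn. The control level did not differ detectably between tissues (shoot minus root -0.06, SE 0.24).

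The phi-class gene gst2 followed with rises in all 6 comparisons. Shoots had 11.34, 11.42 and 11.31 without Zn, 12.17, 12.08 and 12.20 without Fe and 13.83, 13.75 and 13.85 without both, against 10.37, 10.28 and 10.20 in +Fe+Zn. The 4 shoot groups did not overlap one another. The shoot changes were 1.07, 1.87 and 3.53 (SE 0.19 each), with adjusted p = 7.4e-11 for –Fe–Zn, and the –Fe change was 1.05 with the 3′-minus-middle covariate.

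Root levels of gst2 were 12.77, 12.77 and 12.87 without Zn, 12.07, 12.20 and 12.18 without Fe and 12.49, 13.65 and 13.52 without both, against 11.50, 11.42 and 11.39 in +Fe+Zn. Every deficient root was above the controls. The changes were 1.37 (adjusted p = 2.9e-05), 0.71 (adjusted p = 0.0074) and 1.78 (adjusted p = 9.1e-07), with an SE of 0.19. The –Fe call was lost when roots were fitted without the shoot arrays.

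Of the other phi-class genes named above, gst1 fell in some comparisons where gst2 rose, and GST3 fell in some and rose in others. For gst1 the shoots had 7.29, 7.60 and 7.29 without Zn, 9.52, 9.16 and 9.07 without Fe and 7.54, 7.35 and 7.25 without both, against 9.47, 9.37 and 9.50 in +Fe+Zn. The –Zn and –Fe–Zn shoots were all below the control, and the –Fe shoots overlapped it. gst1 fell by 2.05 (SE 0.22, adjusted p = 7.8e-07) under –Zn and by 2.07 (SE 0.22, adjusted p = 4.5e-07) under –Fe–Zn, and its –Fe change was -0.20 (adjusted p = 0.69).

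In roots gst1 had 9.92, 10.27 and 9.98 without Zn, 8.30, 8.59 and 8.11 without Fe and 9.15, 10.27 and 10.18 without both, against 9.87, 9.85 and 9.70 in +Fe+Zn. The –Fe roots alone lay clear below the control, with a fall by 1.47 (SE 0.22, adjusted p = 5.9e-05). GST3 rose in the 3 shoot comparisons (0.66, 1.07 and 0.69) and in –Fe–Zn roots (0.57), while in –Fe roots it fell by 1.00 and in –Zn roots it fell by 0.73. The –Zn root call was lost in the fit of roots alone and in that of only the groups compared. With the covariate the calls in –Fe shoots (0.43, adjusted p = 0.12) and –Fe–Zn roots (0.27, adjusted p = 0.22) were lost, the second also without root +Fe+Zn replicate 2 or 3 or root –Fe–Zn replicate 2 or 3 (adjusted p up to 0.13). gst5 rose in –Fe shoots (1.00), –Zn roots (1.03) and –Fe–Zn roots (1.02) and fell in –Fe roots (-0.75).

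**Figure D2:**
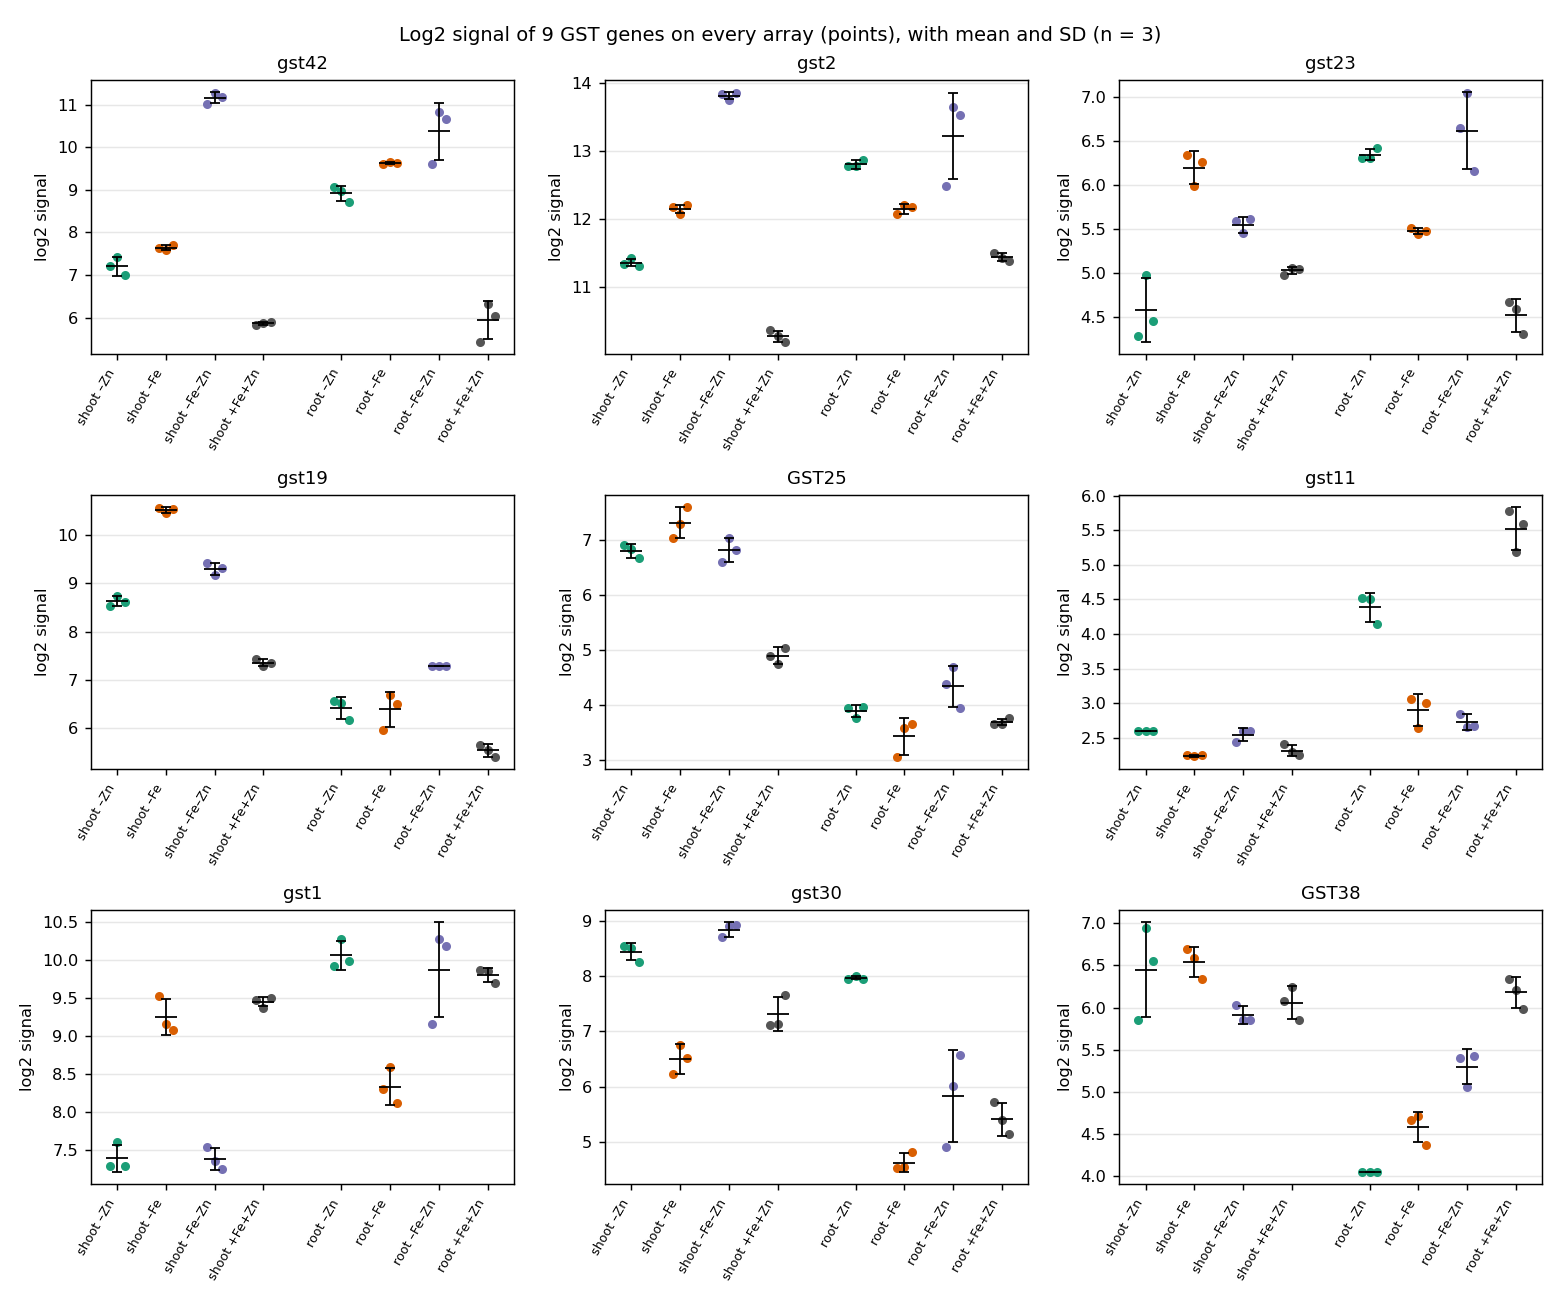
Log2 signal of 9 GST genes on each of the 24 arrays, with shoots on the left and roots on the right of every panel; points are arrays, the long tick is the mean and the bars the SD (n = 3). gst42, gst2 and gst19 were above +Fe+Zn in every deficient group. Replicate 1 of root –Fe–Zn lay below the other replicates of its group for gst42, gst2, gst1 and gst30.

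gst19 and GST25 had the largest rises of all members in –Fe shoots. gst19 had 8.52, 8.74 and 8.61 in –Zn shoots, 10.56, 10.45 and 10.53 in –Fe shoots and 9.41, 9.18 and 9.31 in –Fe–Zn shoots, against 7.43, 7.28 and 7.35 in +Fe+Zn shoots. The –Fe shoots were highest, and shoots without both elements lay between the –Zn and –Fe shoots. The changes were 1.27 (adjusted p = 1e-06), 3.15 (adjusted p = 9.5e-12) and 1.94 (adjusted p = 3.3e-09), with an SE of 0.14.

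Root gst19 was 6.56, 6.53 and 6.17 without Zn, 5.97, 6.69 and 6.51 without Fe and 7.28 on all 3 arrays without both, against 5.66, 5.55 and 5.41 in +Fe+Zn. All deficient roots were above the control, with changes of 0.88, 0.85 and 1.74 (SE 0.14). The –Fe–Zn replicates share a repeated value, which shoot +Fe+Zn replicate 2 also has.

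GST25 had 6.90, 6.84 and 6.66 in –Zn shoots, 7.04, 7.29 and 7.59 in –Fe shoots and 6.59, 7.04 and 6.82 in –Fe–Zn shoots, against 4.89, 4.74 and 5.03 in +Fe+Zn shoots. The 9 deficient shoots, which overlapped one another, were all above the control. The rises were 1.92, 2.42 and 1.93 (SE 0.18), with adjusted p = 1e-08 for –Fe. Root levels stayed between 3.05 and 4.68 on all 12 arrays, and only the –Fe–Zn change was called (0.66, adjusted p = 0.012), which was lost without root –Fe–Zn replicate 2 (adjusted p = 0.066).

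gst23 and gst24 also rose in –Fe and –Fe–Zn shoots. gst23 had 4.28, 4.98 and 4.46 in –Zn shoots, 6.34, 5.99 and 6.26 in –Fe shoots and 5.59, 5.46 and 5.62 in –Fe–Zn shoots, against 4.98, 5.06 and 5.05 in +Fe+Zn shoots. The –Fe and –Fe–Zn shoots were above the control, and the –Zn shoots reached into its range. The shoot –Fe rise was 1.17 (SE 0.18, adjusted p = 5.2e-05), and the shoot –Fe–Zn rise of 0.52 (adjusted p = 0.025) was lost without any 1 of the control replicates or of –Fe–Zn replicates 1 and 3 (adjusted p up to 0.069).

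In roots gst23 had 6.31, 6.31 and 6.43 without Zn, 5.51, 5.45 and 5.48 without Fe and 6.65, 7.05 and 6.16 without both, against 4.67, 4.59 and 4.31 in +Fe+Zn. All 9 deficient roots exceeded the controls, with rises of 1.83 (adjusted p = 8.5e-07), 0.95 (adjusted p = 0.00062) and 2.10 (adjusted p = 9.8e-08) at an SE of 0.18. gst24 was 4.15, 4.26 and 4.39 in –Fe shoots and 5.90, 4.16 and 4.78 in –Fe–Zn shoots, against 2.30 on all 3 arrays of shoot +Fe+Zn, close to the lowest value. The rises of 1.97 (adjusted p = 1.5e-05) and 2.65 (adjusted p = 3.3e-07) may therefore be understated, which was not tested. In roots gst24 was at 2.24 under –Zn, –Fe and +Fe+Zn.

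gst7 rose where both elements were missing. It had 7.15, 6.56 and 6.90 in –Fe–Zn shoots, against 4.07, 3.98 and 3.98 in +Fe+Zn shoots, while shoot –Zn had 4.52, 4.93 and 4.51 and shoot –Fe 3.98 throughout. The –Fe–Zn shoots were highest, with a rise of 2.86 (SE 0.44, adjusted p = 3.1e-05), and the –Zn shoots lay above the control without overlap but were not called (0.64, adjusted p = 0.29). In roots it had 3.98, 3.90 and 3.85 without Zn, 3.00, 2.51 and 3.00 without Fe and 3.98, 5.59 and 6.88 without both, against 3.96, 3.37 and 3.59 in +Fe+Zn. Replicate 1 of root –Fe–Zn was close to the highest control, and the rise of 1.84 (adjusted p = 0.0039) was lost when only the groups compared or only the roots were fitted.

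gst11 had the largest falls of all members in –Fe and –Fe–Zn roots, while under –Zn gst31 and GST38 fell more. Its root values were 4.52, 4.51 and 4.15 without Zn, 3.07, 2.65 and 3.01 without Fe and 2.85, 2.66 and 2.67 without both, against 5.78, 5.18 and 5.59 in +Fe+Zn. No deficient root reached the controls, and the –Fe and –Fe–Zn roots were the lowest. The changes were -1.13 (adjusted p = 5.2e-06), -2.61 (adjusted p = 8e-11) and -2.79 (adjusted p = 3.6e-11), with an SE of 0.13. Shoots had 2.60 on all –Zn arrays, 2.25, 2.24 and 2.25 without Fe and 2.45, 2.60 and 2.60 without both, against 2.41, 2.30 and 2.25 in +Fe+Zn, all near the lowest value.

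Other members that fell in roots were gst9 (-1.01 without Zn, -1.10 without Fe and -1.81 without both), the gst13 probe set ending S1_at (-0.70, -0.62 and -1.75) and gst28 (-0.40, -0.40 and -0.50). gst16 fell in –Zn roots (-0.25) and –Fe–Zn roots (-0.33). Both calls were lost in the fit of roots alone and after median centring (-0.18 and -0.08). None of them was called in any shoot comparison, where gst9, gst13, gst16 and gst28 had control means of 2.49, 2.82, 2.26 and 3.04. The root –Zn and root –Fe calls of gst13 and gst28 and the root –Zn call of gst16 were lost without single arrays, among them root +Fe+Zn replicates 1 and 2 (adjusted p up to 0.16 for gst13, 0.12 for gst28 and 0.15 for gst16). Members that rose in all 3 root comparisons and were not called higher in shoots were gst17 (1.25, 0.84 and 1.07), gst18 (0.75, 0.65 and 0.87) and gst41 (1.24, 1.24 and 1.68). The root –Fe calls of gst17 and gst41 and the root –Zn call of gst41 were lost without single arrays, among them root +Fe+Zn replicate 1 (adjusted p up to 0.096). In –Fe shoots gst17 had 7.46, 7.43 and 7.19, against 6.70, 6.63 and 6.58 in +Fe+Zn shoots, without overlap but not called (0.72, adjusted p = 0.052), and its shoot and root changes under –Fe did not differ detectably (-0.12, adjusted p = 1). For gst41 the tissue difference was called under –Fe–Zn (-1.44, adjusted p = 0.026) and not under –Zn (-0.96, adjusted p = 0.16) or –Fe (-1.09, adjusted p = 0.12). When only the groups compared were fitted, the –Fe–Zn root calls of gst18, gst28 and gst41 and the –Zn root call of gst41 were lost. gst18 was lower in –Zn shoots (-0.40) and –Fe shoots (-0.41), and gst17 in –Zn shoots (-0.80), all 3 calls being lost without single arrays (adjusted p up to 0.15).

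gst6 was called in roots and in no shoot comparison. It had 3.96, 4.11 and 3.60 in –Zn roots, 2.91, 2.61 and 2.80 in –Fe roots and 3.90, 6.04 and 5.23 in –Fe–Zn roots, against 3.95, 3.95 and 4.05 in +Fe+Zn roots. The –Fe roots lay below the control, with a fall by 1.21 (SE 0.32, adjusted p = 0.0085) that was not called in the fit of roots alone, and replicate 1 of –Fe–Zn lay under the control while the other replicates were above it. The –Fe–Zn rise of 1.07 (adjusted p = 0.018) was lost without replicate 2 or 3 (adjusted p up to 0.087) and with the covariate (0.39). gst14, which was called in no comparison with +Fe+Zn, spread from 3.71 to 5.45 among the control roots, and GST26 stayed between 2.30 and 3.52 on all 24 arrays.

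Several members are neighbours in the RefSeq annotation of Zm-B73-REFERENCE-NAM-5.0, where 16 of the 31 genes lie in 5 stretches with at most 20 annotated genes between them. The longest holds gst42, gst32, gst37, GST39, GST38 and gst30 in this order, with 0, 3, 1, 0 and 0 other annotated genes between them. These 6 genes changed differently from each other. gst32 was at 2.24 on 22 of the 24 arrays, with a call in –Fe–Zn shoots (0.57) that was lost without any 1 of the control replicates (adjusted p up to 0.093). gst37 was called in –Fe shoots (-1.05), a call lost with the covariate (-0.22, adjusted p = 0.73).

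gst30, at one end of this stretch, had 8.55, 8.52 and 8.27 in –Zn shoots, 6.22, 6.76 and 6.52 in –Fe shoots and 8.71, 8.91 and 8.94 in –Fe–Zn shoots, against 7.11, 7.14 and 7.67 in +Fe+Zn shoots. The –Zn and –Fe–Zn shoots were above the control and the –Fe shoots below it. The changes were 1.14 (SE 0.29, adjusted p = 0.0038), -0.81 (adjusted p = 0.038) and 1.55 (adjusted p = 0.00022). The –Fe call was lost without shoot +Fe+Zn replicate 2 or 3 or shoot –Fe replicate 1 or 3 (adjusted p up to 0.17), and was -1.80 with the covariate.

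Roots had gst30 at 7.96, 8.01 and 7.96 without Zn, 4.52, 4.53 and 4.81 without Fe and 4.91, 6.01 and 6.57 without both, against 5.72, 5.39 and 5.13 in +Fe+Zn. The –Zn roots stood alone above the control, and the –Fe–Zn roots lay on both sides of it. The –Zn rise was 2.56 (SE 0.29, adjusted p = 3.5e-06), and the other changes were -0.79 (adjusted p = 0.052) and 0.41 (adjusted p = 0.33).

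GST38, next to gst30, fell in roots under every deficiency, under –Zn opposite to gst30. It had 4.05 on all 3 arrays of root –Zn, 4.67, 4.71 and 4.37 in –Fe roots and 5.40, 5.06 and 5.43 in –Fe–Zn roots, against 6.34, 6.21 and 5.98 in +Fe+Zn roots. All deficient roots were below the control, and the roots without both elements fell least. The changes were -2.13 (SE 0.20, adjusted p = 4.5e-07), -1.60 (adjusted p = 9.8e-06) and -0.88 (adjusted p = 0.0028). Shoot values were 5.85, 6.95 and 6.55 without Zn, 6.70, 6.59 and 6.34 without Fe and 6.03, 5.85 and 5.85 without both, against 6.08, 6.24 and 5.85 in +Fe+Zn, with no call. Its neighbour GST39 fell in –Zn shoots (-2.02, SE 0.38, adjusted p = 0.00031) and –Fe–Zn shoots (-1.64, adjusted p = 0.0016) and rose in –Fe–Zn roots (1.20, adjusted p = 0.024), the last call being lost without root +Fe+Zn replicate 2 or 3 or root –Fe–Zn replicate 1 or 3 (adjusted p up to 0.091).

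**Figure D3:**
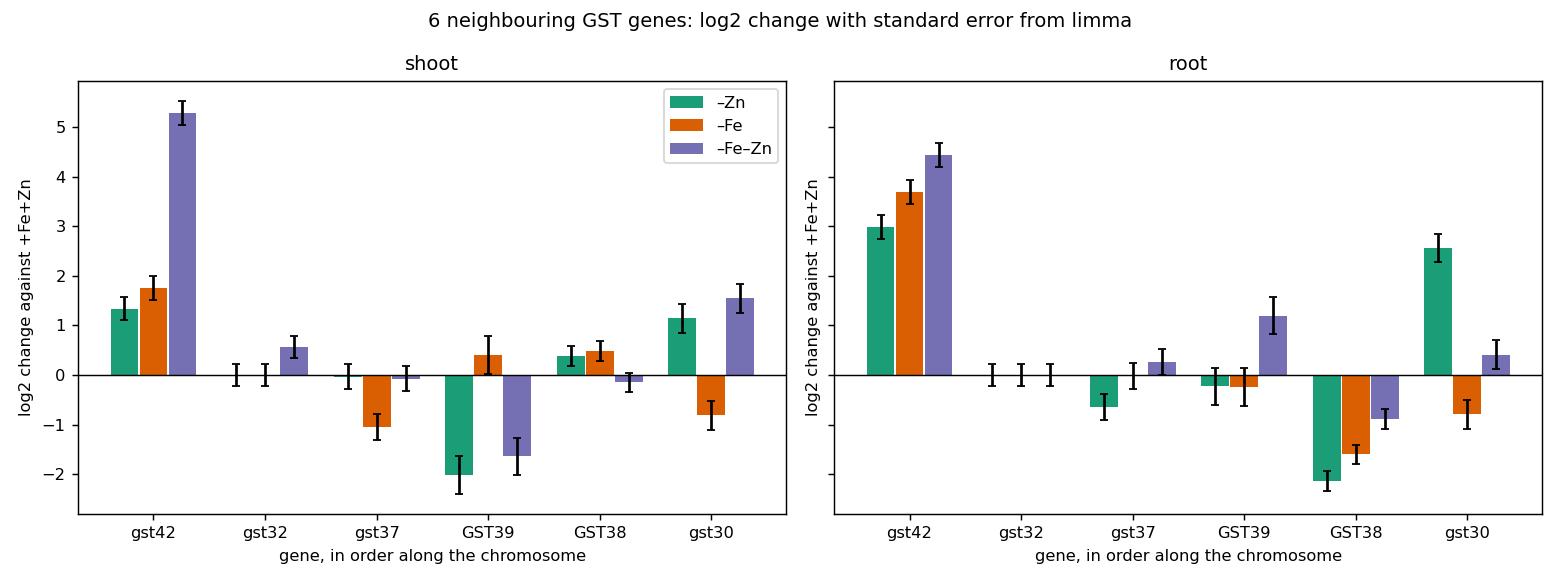
Log2 change against +Fe+Zn of 6 neighbouring GST genes, in their order along the chromosome, in shoot (left) and root (right); bars are limma estimates and whiskers their standard errors. In root –Zn gst42 (2.98) and gst30 (2.56) rose while GST38 (-2.13) fell.

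gst11, gst12, gst10 and gst31 form another stretch, with 0, 1 and 16 other genes between. Among the comparisons with +Fe+Zn, gst12 was called only in –Fe–Zn roots (-0.78, adjusted p = 0.048), a call that rested on single arrays of both groups (adjusted p up to 0.25). gst10 rose by 0.40 in –Zn roots, 0.42 in –Zn shoots and 0.43 in –Fe–Zn shoots, the call being lost without shoot –Zn replicate 2, without shoot –Fe–Zn replicate 2, or, in –Zn roots, without any control replicate or –Zn replicates 2 and 3 (adjusted p up to 0.14). gst13 and gst9, which are adjacent, both fell in roots. gst28 and gst7 are adjacent, and GST25 and gst35 have 1 gene between them, with gst35 at the lowest value.

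gst31 has 4 probe sets, which gave different changes under –Fe–Zn, although the difference between probe sets was not tested. The probe sets ending S1_a_at and A1_a_at (S1_a and A1_a) carry the suffix for probes shared by transcripts of 1 gene. Those ending S1_x_at and A1_x_at (S1_x and A1_x) carry the suffix for probe sets in which some probes can also bind other transcripts, and the part of such binding was not tested.

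In shoots S1_x had 6.54, 6.68 and 6.55 without Zn, 6.54, 6.52 and 6.57 without Fe and 9.07, 8.38 and 8.54 without both, against 8.62, 8.70 and 8.88 in +Fe+Zn. Each single deficiency lay below the control, and shoots without both elements overlapped it. The changes were -2.15 (SE 0.26, adjusted p = 3.4e-06), -2.19 (adjusted p = 2.6e-06) and -0.07 (adjusted p = 1).

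Roots had S1_x at 2.94, 3.40 and 3.24 without Zn, 4.21, 3.87 and 4.05 without Fe and 6.43, 7.85 and 7.71 without both, against 6.48, 6.43 and 6.43 in +Fe+Zn. All 6 roots of the single deficiencies lay well below the control, at -3.25 (SE 0.26, adjusted p = 6.3e-08) and -2.40 (adjusted p = 1.8e-06). Under –Fe–Zn replicate 1 equalled the control and the other replicates exceeded it, and the rise of 0.89 (adjusted p = 0.016) was lost without replicate 2 or 3 (adjusted p up to 0.087) and with the covariate (0.40).

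A1_x had 3.00, 2.92 and 2.66 in –Zn shoots, 2.65, 2.78 and 2.82 in –Fe shoots and 5.07, 4.67 and 4.80 in –Fe–Zn shoots, against 4.54, 4.57 and 4.90 in +Fe+Zn shoots. As with S1_x, the single deficiencies were below the control (-1.81 and -1.92, SE 0.16) and the combined one overlapped it (0.18). Root values were 2.47, 2.38 and 2.38 without Zn, 2.59, 2.41 and 2.62 without Fe and 2.62, 3.41 and 2.81 without both, against 2.62 on every +Fe+Zn array, with no call.

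S1_a had 3.77, 3.88 and 3.77 in –Zn shoots, 4.33, 4.21 and 4.30 in –Fe shoots and 3.77, 4.15 and 4.24 in –Fe–Zn shoots, against 6.03, 5.70 and 5.75 in +Fe+Zn shoots. All deficient shoots were below the control, those without both elements included, at -2.02 (SE 0.21, adjusted p = 6e-07), -1.54 (adjusted p = 1.3e-05) and -1.77 (adjusted p = 1.8e-06). Root S1_a was 3.18, 3.54 and 3.04 without Zn, 3.55, 3.54 and 3.31 without Fe and 3.67, 4.89 and 4.24 without both, against 3.77, 3.74 and 3.74 in +Fe+Zn, with no call.

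A1_a had 3.16, 3.30 and 2.91 in –Zn shoots, 3.68, 3.75 and 3.60 in –Fe shoots and 4.27, 3.61 and 3.49 in –Fe–Zn shoots, against 5.35, 4.79 and 5.22 in +Fe+Zn shoots. It fell like S1_a in all 3, by 2.00, 1.44 and 1.33 (SE 0.26). Root A1_a was 2.66 on every –Zn array, 2.66, 2.78 and 2.66 without Fe and 2.95, 4.41 and 3.84 without both, against 2.95, 2.97 and 2.95 in +Fe+Zn, and its –Fe–Zn call (0.78, adjusted p = 0.032) was lost without any 1 control replicate or –Fe–Zn replicate 2 or 3 (adjusted p up to 0.18).

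**Figure D4:**
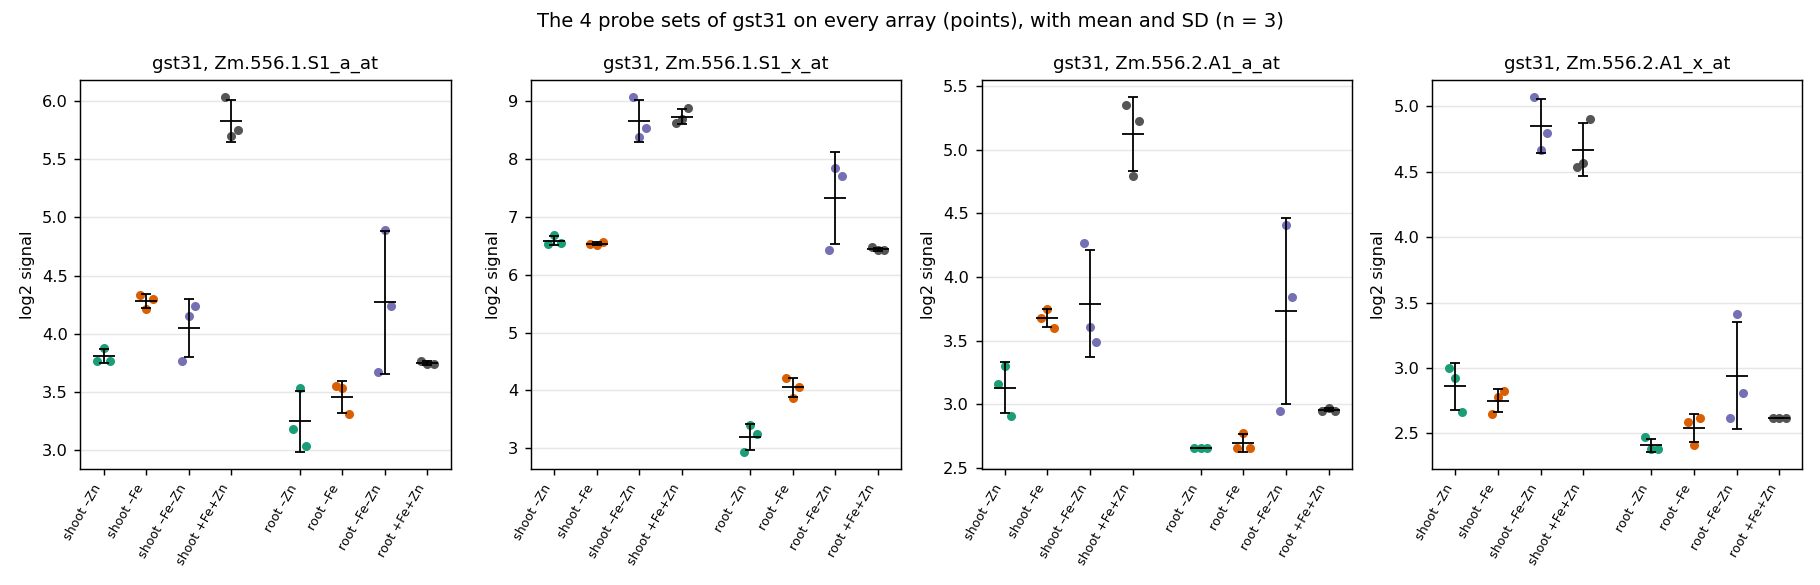
Log2 signal of the 4 gst31 probe sets on each array, shoots left and roots right in each panel; points are arrays, the long tick is the mean and the bars the SD (n = 3). In shoot –Fe–Zn the 2 probe sets ending in x lay at the control level, with changes of -0.07 and 0.18, and the 2 ending in a lay below it, with changes of -1.77 and -1.33.

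The change under –Fe–Zn was compared with the sum of the changes under –Zn and –Fe (the Fe by Zn interaction, positive where the combined change exceeds the sum). In shoots 7 GST probe sets were above the sum (20%) and 5 below (14.3%), against 11.3% and 13.1% of all probe sets. In roots 13 were above (37.1%) and 5 below (14.3%), against 10.4% and 25.3%. The 4 gst31 probe sets are all among those above the sum in both tissues, and with the brightest probe set of each gene 4 genes were above (12.9%) and 5 below (16.1%) in shoots and 10 above (32.3%) and 5 below (16.1%) in roots. The median interaction was 0.06 in shoots and 0.13 in roots, where that of all probe sets was 0.00. Median centring split the root calls into 19 above and 2 below, and quantile normalization into 13 and 2. The interaction is built on the –Fe–Zn arrays, which include the least correlated replicates.

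gst31 S1_x had the largest interaction in both tissues, 4.27 (SE 0.37, adjusted p = 1.4e-07) in shoots and 6.54 (SE 0.37, adjusted p = 4.3e-10) in roots. A1_x followed in shoots at 3.91 (SE 0.22, adjusted p = 7.1e-10), since its falls under the single deficiencies were not seen under –Fe–Zn. In roots GST38 was next by the naming rule, at 2.84 (SE 0.28, adjusted p = 4.6e-07). For gst42 the interaction was 2.18 (SE 0.34, adjusted p = 0.00012) in shoots and -2.24 (SE 0.34, adjusted p = 5.4e-05) in roots, and the difference between the tissues in this term was not tested. gst19 (-2.48) and GST25 (-2.41) were below the sum in shoots, and gst7 was above it in shoots (2.25, adjusted p = 0.012) and roots (2.37, adjusted p = 0.0055), the root call being lost in the fit of roots alone.

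Under the complete solution 13 GST probe sets were higher and 11 lower in shoots than in roots (37.1% and 31.4%), against 25.5% and 26% of all probe sets, with a median of 0.00 for both. The largest difference was that of gst12, with a mean of 2.30 ± 0.04 in shoots and 8.33 ± 0.14 in roots (SD, n = 3), a change of -6.03 (SE 0.28, adjusted p = 2.4e-12) whose size the lowest value of the table limits. GST39 was higher in shoots, at 7.44 ± 0.20 against 3.46 ± 0.44 in roots (3.98, SE 0.38, adjusted p = 4.5e-08). gst11 was lower in shoots by 3.20 on the log2 scale, and the 4 gst31 probe sets were higher by 2.05 to 2.29.

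The change of each member was then compared between tissues, as the shoot change minus the root change. Under –Zn 7 were higher in shoots (20%) and 11 lower (31.4%), against 15.8% and 19.3% of all probe sets. Under –Fe 11 were higher (31.4%) and 6 lower (17.1%), against 14.1% and 16.3%. Under –Fe–Zn 12 were higher (34.3%) and 10 lower (28.6%), against 24.4% and 17.7%, and median centring, which moved the median of all probe sets to -0.34, split them into 6 and 13. The median difference was 0.02, 0.21 and 0.12, where that of all probe sets was 0.00, 0.00 and 0.01.

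gst1 was called in this comparison under all 3 deficiencies, at -2.31 without Zn, 1.27 without Fe and -2.13 without both (SE 0.31). The order of the tissues thus turned between –Fe and the other 2 deficiencies, although the –Fe call was lost with the covariate. gst23 differed by -2.28 under –Zn and -1.57 under –Fe–Zn (SE 0.26) but not detectably under –Fe (0.21, adjusted p = 0.72). GST25 rose more in shoots under every deficiency, by 1.71, 2.68 and 1.27 (SE 0.26). gst42 rose more in roots under –Zn (-1.64, SE 0.34) and –Fe (-1.93), and under –Fe–Zn its difference of 0.86 was not called (adjusted p = 0.056).

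**Figure D5:**
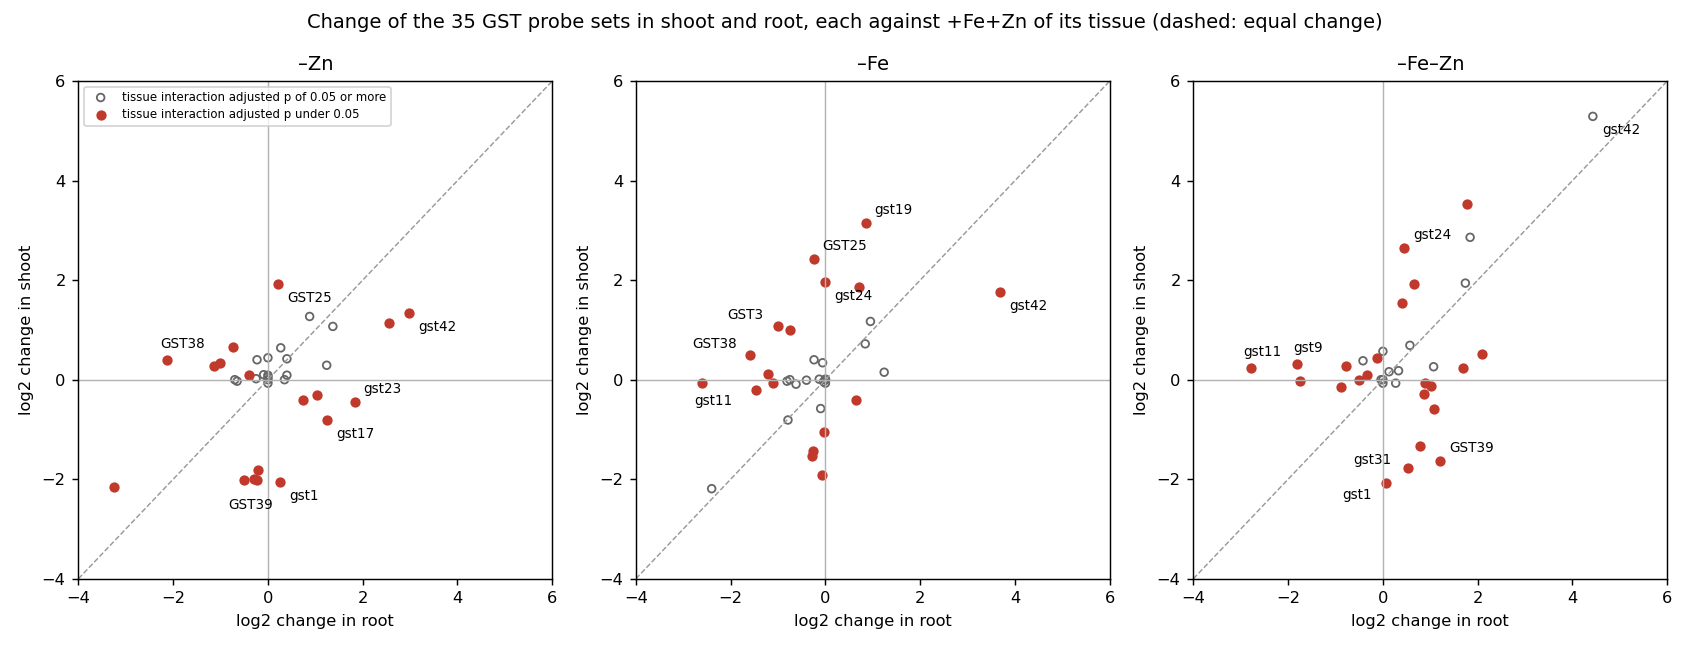
Log2 change in shoot (vertical axis) against root (horizontal axis) of the 35 GST probe sets under –Zn, –Fe and –Fe–Zn; each point is 1 probe set, filled where the shoot and root changes differed at an adjusted p under 0.05, and the dashed line marks equal change. gst42 lies below the line under –Zn and –Fe and near it under –Fe–Zn.

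Glutathione is built on cysteine and kept reduced by glutathione reductase, and ABC transporters carry its conjugates. For this reason 18 probe sets of 13 other genes of glutathione and sulfur metabolism were set beside the GSTs. In shoots 4 of these were higher and 6 lower without Zn (22.2% and 33.3%, against 20.3% and 19% of all probe sets), 6 and 6 without Fe (33.3% each, against 17% and 16.4%) and 4 and 8 without both (22.2% and 44.4%, against 22.4% and 22.2%), with median changes of -0.20, -0.27 and -0.72. In roots 3 were higher and 0 lower without Zn (16.7% and 0%, against 13.4% and 8.46%), 1 and 5 without Fe (5.56% and 27.8%, against 14.7% and 10.9%) and 3 and 1 without both (16.7% and 5.56%, against 8.09% and 20%), with medians of 0.06, -0.26 and 0.08. Each median stands beside 0.00 for all probe sets.

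gsh1 and gsh2, the genes of the 2 enzymes that make glutathione, rose in –Fe shoots (1.32 and 1.29) and were called in no other comparison with +Fe+Zn. Glutathione reductase gsr1 rose in –Fe shoots (0.77) and –Zn roots (0.53) and fell in –Fe–Zn shoots (-0.59). The transporter gene mrpa1 had 6.65, 6.30 and 6.42 in –Zn shoots, 7.23, 6.98 and 7.20 in –Fe shoots and 7.93, 6.12 and 7.66 in –Fe–Zn shoots, against 5.43, 5.57 and 5.49 in +Fe+Zn shoots. All deficient shoots were above the control, with rises of 0.96 (SE 0.37, adjusted p = 0.05), 1.64 (adjusted p = 0.0018) and 1.74 (adjusted p = 0.00079). MRP2, which encodes a transporter of the same family, had 4.38, 4.52 and 4.65 in –Zn roots and 4.95, 4.93 and 4.81 in –Fe roots on the probe set ending S1_a_at, against 3.55, 3.56 and 3.81 in +Fe+Zn roots. These deficient roots were all above the control, with rises of 0.87 and 1.26 (SE 0.14). On this probe set the –Fe–Zn root change of 0.25 was not called, and MRP2 rose in –Fe shoots (0.77) and –Fe–Zn shoots (0.40). Another transporter gene of the list, MRP4, fell in –Fe roots (-0.80) and –Zn shoots (-0.78) and rose in –Fe shoots (1.14), all called.

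The glyoxalase I gene glx1, whose enzyme uses glutathione to clear methylglyoxal, had 2.40, 2.46 and 2.95 in –Zn shoots, 8.59, 8.16 and 8.33 in –Fe shoots and 3.56, 2.40 and 2.73 in –Fe–Zn shoots on the probe set ending S1_a_at, against 9.45, 9.44 and 9.51 in +Fe+Zn shoots. All deficient shoots were below the control, and the –Zn and –Fe–Zn shoots were near the lowest value, with changes of -6.86 (SE 0.31, adjusted p = 2e-11), -1.11 (adjusted p = 0.0091) and -6.57 (adjusted p = 1.9e-11). On the same gene a probe set ending S1_at had changes of -0.89 in –Fe shoots and -0.99 in –Fe–Zn shoots and fell by 1.00 in –Zn shoots, and the one ending A1_x_at had -1.49 in –Zn shoots, -0.65 in –Fe shoots and -1.48 in –Fe–Zn shoots, all called. The remaining glx1 probe set was at or near the lowest value in all shoots. The middle signal of cyclophilin was lowest in the –Zn and –Fe–Zn shoots and highest in the –Fe shoots, and its part in this was not tested.

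In the supply of reduced sulfur, the adenylylsulfate reductase-like gene aprl1 had 10.28, 10.38 and 10.36 in –Zn shoots, 10.36, 10.42 and 10.63 in –Fe shoots and 8.88, 8.01 and 8.26 in –Fe–Zn shoots, against 11.72, 11.90 and 12.05 in +Fe+Zn shoots. All deficient shoots were below the control, those without both elements most, with changes of -1.55, -1.42 and -3.51 (SE 0.20). In roots aprl1 had 9.05, 9.12 and 9.14 under –Zn and 7.37, 7.49 and 7.15 under –Fe, against 8.36, 8.58 and 8.41 in +Fe+Zn. The –Zn roots were above the control (0.65, adjusted p = 0.024) and the –Fe roots below it (-1.11, adjusted p = 0.00033).

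The cysteine synthase gene cys2 had 7.87, 8.22 and 8.30 in –Zn shoots and 9.28, 7.08 and 7.57 in –Fe–Zn shoots, against 11.00, 10.82 and 10.78 in +Fe+Zn shoots. Both groups lay below the control, with replicate 1 of –Fe–Zn nearest to it, and the changes were -2.74 and -2.89 (SE 0.37). In root –Fe–Zn the serine acetyltransferase gene sat1 had 4.75, 6.30 and 6.09, against 4.53, 4.63 and 4.65 in +Fe+Zn roots. The probe set of aprl3 ending S1_at had 3.33, 4.21 and 4.49, against 2.75, 2.79 and 2.61 in the same control. On both probe sets replicate 1 was the nearest to the control, and the changes were 1.11 (SE 0.35, adjusted p = 0.025) for sat1 and 1.29 (SE 0.35, adjusted p = 0.0099) for this probe set of aprl3. The aprl3 probe set ending A1_at had a change of 0.00 (SE 0.20, adjusted p = 1) in the same comparison. Other calls in shoots were rises of sat2 (0.96 without Zn, 1.88 without both), of sat3 without Zn (0.50) and of aprl3 S1_at (1.11 without Zn, 1.05 without both). Falls in shoots were those of sat3 (-1.01 without Fe, -0.91 without both) and aprl3 A1_at (-0.91 and -1.09). In roots sat3 fell under –Fe (-0.61) and –Fe–Zn (-0.68), and sat2 rose under –Fe–Zn (0.95).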

How the data were processed

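The 24 arrays were assigned to tissue, treatment and replicate from the labels. By the study's methods the authors summarised them with GCRMA and deposited log2 values for 17734 probe sets. The submitters' notes list RMA instead, next to affy and limma, and the background correction was therefore not settled. The values were used as deposited, since no raw intensities were used here. In R 4.3.3 with limma 3.58.1, 8 group means were fitted to the 24 arrays by lmFit and moderated by eBayes, and p-values were Benjamini-Hochberg adjusted over all 17734 probe sets. SE is the moderated standard error. The number of arrays limits the precision, and an exact permutation p for 3 against 3 cannot be under 0.1. The labels number the replicates of a group, and the study's methods describe RNA isolated in triplicate without naming separate plants. The p-values measure the spread between these arrays, and whether this is the spread between plants was not settled.

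Members were found by matching the gene ID of the array annotation, where 1452 probe sets carry 1 gene, to the RefSeq gene table. Members and lists were chosen with earlier results of these data known. Per-array values are given for the 3 members with the largest called change whose arrays do not overlap in each comparison with +Fe+Zn, the 2 largest Fe by Zn interactions of a tissue, every probe set of a gene so named, and the 2 largest of the glutathione and sulfur list in each comparison. gst24 and other values were added after they were seen. Deficient and control arrays of a tissue with the same number deviated together in few pairs (5 of 18 correlated above 0.1), so no block was used. This check did not pair shoots with roots. The limma script was tested on simulated data. Alternatives were the methods' threshold (unadjusted p under 0.05 and 2-fold), adjusted p with 2-fold, fits per tissue or of the groups compared, a replicate block, each array left out, median centring, quantile normalization, a filter on low signals, an intensity trend with robust prior, no control probe sets and 1 probe set per gene. Added after seeing the data were the 3′-minus-middle covariate and fits that left out the root –Fe–Zn group or both shoot groups lacking Zn.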

Additional observations from a re-analysis of the deposited data

Results flagged for a closer look

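For 12 of the 15 changes of named members tested, the shoot change differed from the root change under the same deficiency at an adjusted p under 0.05 in limma (shoot minus root below). The 15 were picked for large changes in 1 tissue, which favours such a difference. Over all 35 GST probe sets 51.4%, 48.6% and 62.9% differed under –Zn, –Fe and –Fe–Zn, against 35.2%, 30.4% and 42.1% of all probe sets. Under –Zn, gst1 differed by -2.31 (-2.05 in shoots and 0.25 in roots), gst31 S1_a by -1.52 (-2.02 and -0.50), gst42 by -1.64 (1.34 and 2.98) and gst30 by -1.42 (1.14 and 2.56, a call lost after quantile normalization). gst31 S1_x differed by 1.11 under –Zn (-2.15 in shoots and -3.25 in roots), a call lost without root –Zn replicate 1, shoot +Fe+Zn replicate 1 or shoot –Zn replicate 2 (adjusted p up to 0.068). Under –Fe, GST25 differed by 2.68 (2.42 in shoots and -0.25 in roots), gst11 by 2.53 (-0.07 and -2.61), gst19 by 2.30 (3.15 and 0.85) and gst42 by -1.93 (1.76 and 3.69). Under –Fe–Zn, gst11 differed by 3.02 (0.23 in shoots and -2.79 in roots), gst2 by 1.74 (3.53 and 1.78) and gst23 by -1.57 (0.52 and 2.10). For gst11 the shoot values lie near the lowest value of the table, where a fall could not be seen.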

How the results depend on the processing

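All 22 named changes and interactions kept their direction and their call in the 449 alternative values computed for them. They were picked as the largest called ones in the same data, which favours this outcome. Among all GST calls, 10 of the 22 in –Fe–Zn roots and 12 of the 15 in –Zn shoots held in every other fit at the same threshold, apart from those leaving out 1 array. The counts of GST probe sets called depended on the threshold in roots. Both the methods' threshold and an adjusted p with 2-fold gave 11 in –Zn roots (18 without a fold minimum), 8 in –Fe roots (17) and 13 in –Fe–Zn roots (22), since many called changes were under 2-fold. Fitting only the groups compared gave 12 in –Fe–Zn roots, of which 11 were among the 22. Leaving out 1 array gave 14 to 15 in –Zn shoots, 13 to 15 in –Fe shoots, 14 to 17 in –Fe–Zn shoots, 13 to 17 in –Zn roots, 13 to 17 in –Fe roots and 17 to 24 in –Fe–Zn roots. It gave 11 to 13 for the Fe by Zn interaction in shoots and 13 to 17 in roots, 17 to 20, 14 to 16 and 16 to 22 for the tissue differences under –Zn, –Fe and –Fe–Zn, and 23 to 25 between the controls. Of the 18 pairs of samples with the same replicate number, 5 correlated above 0.1 in their deviations (-0.12 to 0.29) and 8 matched best within their number. With the replicate block the counts were 15, 16 and 15 in shoots, 18, 17 and 22 in roots under –Zn, –Fe and –Fe–Zn, 12 and 15 for the interaction in shoots and roots, 19, 16 and 21 for the tissue differences and 24 between the controls. Other scalings moved the split of calls in –Fe shoots (10 higher and 5 lower after quantile normalization), in –Fe–Zn shoots (10 and 6 after quantile normalization, 9 and 7 after median centring) and –Zn shoots (7 and 11 after the centring), and as given above in –Fe–Zn roots, the root interaction and the tissue difference under –Fe–Zn. With the 3′-minus-middle covariate, chosen after seeing the data, –Fe shoots had 7 higher and 10 lower, –Fe roots 7 and 14 and –Fe–Zn roots 12 and 7. The adjustment for this covariate rests mainly on the –Fe–Zn root arrays. Members near the lowest value have changes that are bounds at best, and 3 arrays a group leave changes under 2-fold open to single arrays.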
